A study of Mus musculus with 80 samples.

Results

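The genes described here are 48 mouse genes known for work in germ cells, sorted by role into 16 genes of meiotic chromosomes, 14 genes of the piRNA pathway and 18 other germ cell genes. They were chosen by symbol, out of 37889 gene symbols found over the expression tables, with earlier results of these data known. Their shares set beside those of all genes are therefore a description. The genes were read in 12 RNA-seq libraries of mouse embryonic stem (ES) cells, lines from the early embryo that can form any tissue. The series asks how SALL4A, a zinc finger transcription factor of the spalt-like family, works together with the TET dioxygenases that oxidise 5-methylcytosine. The replicated groups, with 2 libraries each, carried a floxed and a null Sall4 allele (Sall4flox/-, Sall4 het), the deleted and a null allele (Sall4Δ/-, Sall4 KO), or the KO genotype with a mutant SALL4A transgene (KO plus mutant). Single libraries came from Sall4 KO cells given wild-type SALL4A (KO plus WT), from the Sall1-/-/Sall4-/- double knockout (DKO) and its wild-type cells, from Sall1flox/- (Sall1 het) and Sall1Δ/- (Sall1 KO) cells, and from wild-type TT2 cells, an F1 hybrid line. All cells lacking a working Sall4 allele were compared with cells that kept 1 floxed allele or, for the DKO, with wild-type cells, and the sources used here name no promoter of a transgene or Cre.

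Replicate 1 of each Sall4 group is labelled C57BL/6J and deposited in FPKM (fragments per kilobase, scaled to mapped fragments), and replicate 2 is labelled 129P2/OlaHsd, line E14.1, and deposited in RPKM (the same for reads). The labels tie replicates 1 and 2 of a group to the same biological source record, despite the different strain labels, and do not say whether they are separate cultures. P-values below therefore describe only the spread among libraries, part of which may be technical. The ES cell markers Pou5f1, Nanog, Sox2, Zfp42, Esrrb, Klf4, Tdgf1 and Utf1 were at 1 or more wherever a library listed them. Of 11 spermatid and Sertoli cell markers, at most 1 was at 1 or more in any library. Sall4 RNA lay between 64.2 and 196 in the libraries labelled het and between 218 and 358 in those labelled KO, so it goes against the label. The sources used here do not give the deleted exons, so a whole-gene value checks nothing. All comparisons follow the labels. Sequencing depth is unknown because these units hold no read totals.

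Meiosis pairs homologous chromosomes along a protein axis of cohesin and axial element proteins, joins them by the synaptonemal complex and exchanges DNA at programmed breaks. The piRNA pathway uses PIWI proteins loaded with small RNAs, with Tudor-domain partners and RNA helicases, to silence transposons in germ cells. Many genes of both pathways are held silent in somatic cells and much of the early embryo by promoter methylation and by a Polycomb complex with E2F6, MGA and MAX, and ES cells keep low RNA levels of some of them.

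Most members were low. Of the 48, 27 reached a deposited value of 5 in at least 1 library, 14 peaked between 1 and 5, and 7 stayed under 1 in every library that lists them. The share that reached 5 was 9 of 16 for meiotic chromosome genes, 5 of 14 for the piRNA pathway and 13 of 18 for the other germ cell genes. The genes under 1 throughout were the axial element gene Sycp2, Spo11, which makes the meiotic breaks, the PIWI gene Piwil1, the Tudor-domain genes Tdrd1, Tdrd6 and Tdrd9, and Nanos2, an RNA regulator of male germ cells. Those that peaked between 1 and 5 include Piwil4, Tdrd5, Asz1, Tex101, Slc25a31, Taf7l and Brdt, whose peaks ran from 1.19 for Brdt to 2.02 for Tdrd5. Spo11, Piwil1, Tdrd6, Tdrd9, Asz1 and Nanos2 are not listed in the replicate 2 tables of Sall4 het and KO.

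Only 6 members were at 5 or more in every library. Syce2, a central element protein of the synaptonemal complex, ranged from 49.7 in the wild type of the DKO to 123 in Sall4 het replicate 2. The meiotic cohesin gene Stag3 ranged from 5.72 in DKO to 26.6 in Sall4 het replicate 2, and Tex19.1, which restrains retrotransposons, from 23.0 in TT2 to 153 in Sall4 het replicate 2. Dnd1, an RNA-binding protein needed for germ cell survival, lay between 6.47 and 16.6. The testis ribosomal protein genes Rpl39l and Rpl10l had the highest peaks of their class and ranged from 9.06 to 164 and from 23.9 to 163. Both have near-identical somatic copies, Rpl39 and Rpl10, that ran to 12300 and 2830, so reads may be split between copies and both members' values are uncertain.

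**Figure D1:**
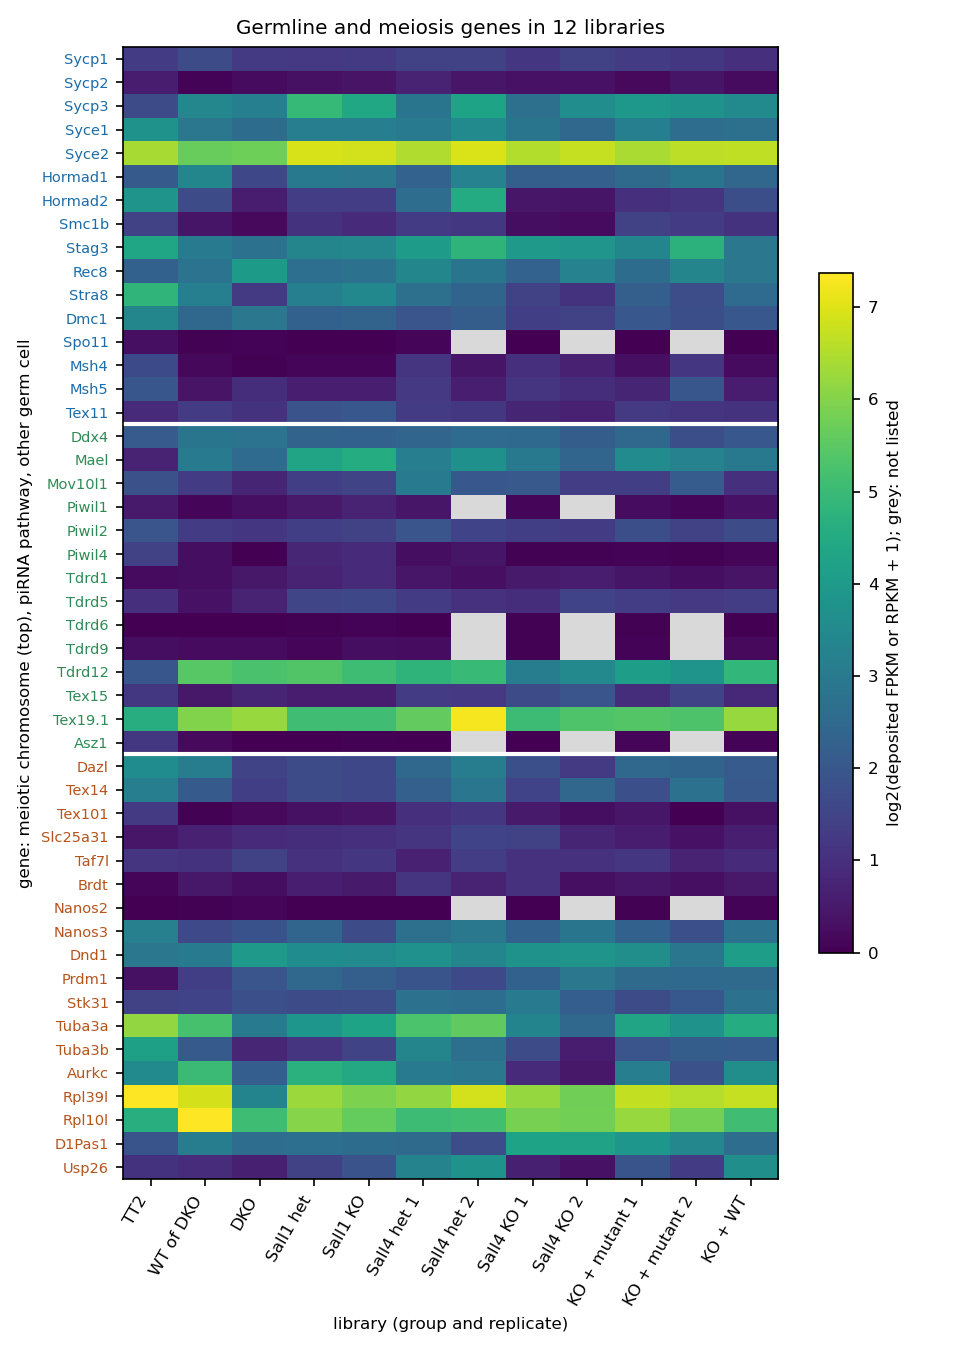
Deposited values of the 48 genes in 12 libraries, as log2 of the FPKM or RPKM value plus 1, with genes in rows by class and libraries in columns. Grey cells mark genes that a table does not list. Syce2, Tex19.1, Rpl39l and Rpl10l stand out in nearly all columns, and 6 of the 14 piRNA genes have a median under 1.

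The first comparison asks how these RNAs differ where SALL4 is lost, between the libraries labelled Sall4 KO and Sall4 het. No member passed the test. In limma, fitted across all genes with a term for replicate number, 0 of 38 members tested and 0 of 15085 genes (0%) had an adjusted p under 0.05, with 1247 genes at an unadjusted p under 0.05. The smallest adjusted p of any member was 0.352. At an unadjusted p under 0.05, 12 members were lower against 4.53% of all genes, and 3 were higher against 3.73%. Members were fitted below 0 in 29 of 38 cases against 51.8% of genes, with a median log2 change of -0.488 against -0.016 over all genes. The members' median ranged from -0.643 to -0.256 over 17 settings, the main fit among them. The median log2 ratio within a pair was -0.188 over 19 members in replicate 1 and -1.09 over 22 in replicate 2, against 0.0261 and -0.111 over all genes. The libraries of a pair share unit and annotation, so the pairs were also read singly. Of 16 members at a scaled value of 5 or more in at least 1 library of each pair, 5 were at least 2-fold lower in both, where 1.35% of 9439 genes were, and 1 was higher in both, where 1.15% were. Aurkc, Usp26 and Tuba3b reached 5 only in het and D1Pas1 only in KO, the group where each is high, so these counts are a description.

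By class, 12 of 14 meiotic chromosome genes, 6 of 8 piRNA genes and 11 of 16 other germ cell genes were fitted below 0, against 51.8% of all genes, with median log2 changes of -0.557, -0.571 and -0.265. At an unadjusted p under 0.05, 5, 1 and 6 of them were lower, against 4.53% of all genes. No difference between the classes was tested.

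Among the other germ cell genes, Aurkc (chromosome 7, 6948154 to 6955656 in mm9), the Aurora kinase of meiotic cells, was 7.43 and 6.56 in het and 0.852 and 0.385 in KO. Usp26 (chromosome X, 49107136 to 49154410), an X-linked deubiquitinase gene of the testis, was 8.74 and 12.6 in het and 0.572 and 0.295 in KO. The log2 changes were -2.29 ± 0.36 for Aurkc and -2.97 ± 0.34 for Usp26 (SE, n = 2 per group, limma adjusted p of 0.366 and 0.352). Of the mitotic Aurora kinase genes, Aurka was 47.5 and 45.3 in het and 50.4 and 51.7 in KO. Aurkb was 90.7 and 46.8 in het and 51.7 and 57.3 in KO, in opposite directions in the pairs.

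Tuba3a and Tuba3b encode testis alpha-tubulins. Tuba3a (chromosome 6, 125228292 to 125236060) was 38.1 and 46.6 in het and 8.93 and 4.53 in KO, the log2 change being -2.56 ± 0.36 (SE, n = 2 per group, limma adjusted p of 0.366). Tuba3b (chromosome 6, 145564277 to 145569999) was 9.24 and 5.56 in het and 2.24 and 0.494 in KO, a log2 change of -1.88 ± 0.38 (limma adjusted p of 0.45). The libraries of each group do not overlap for either gene, and the share of all genes where this holds was not counted. Their coding sequences are nearly identical, so reads of the pair may be split and the values of each are uncertain. The broadly expressed tubulin gene Tuba1a was 426 and 467 in het and 431 and 536 in KO.

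Dazl, an RNA-binding protein that licenses germ cell fate, was 4.45 and 7.69 in het and 2.49 and 1.4 in KO (log2 change -1.25 ± 0.37, SE, n = 2 per group, limma adjusted p of 0.516). Tex14, a protein of the bridges between germ cells, was 3.77 and 6.42 in het and 1.81 and 4.37 in KO, so its groups overlap while each pair points the same way. Nanos3, which protects migrating germ cells, was 5.53 and 6.74 against 3.85 and 6.27. Stk31, a Tudor-domain kinase gene, was 5.90 and 5.33 against 7.39 and 3.56, in opposite directions in the pairs. It has 2 entries in the replicate 1 tables, which were summed.

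The 3 members that were higher at an unadjusted p under 0.05, D1Pas1, Prdm1 and Rpl10l, are also other germ cell genes. D1Pas1 (chromosome 1, 188791295 to 188794506), the autosomal, testis-expressed copy of the RNA helicase gene Ddx3x, was 4.87 and 2.34 in het and 18.2 and 17.9 in KO. Its log2 change was 2.06 ± 0.26 (SE, n = 2 per group, limma adjusted p of 0.352). Ddx3x itself, whose sequence is close enough to share reads, was 121 and 175 in het and 142 and 197 in KO. Prdm1, a repressor that starts germ cell specification, was 2.74 and 2.09 against 3.84 and 6.53, and Rpl10l was 32.0 and 34.3 against 57.1 and 54.8. Their limma adjusted p-values were 0.573 and 0.583.

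**Figure D2:**
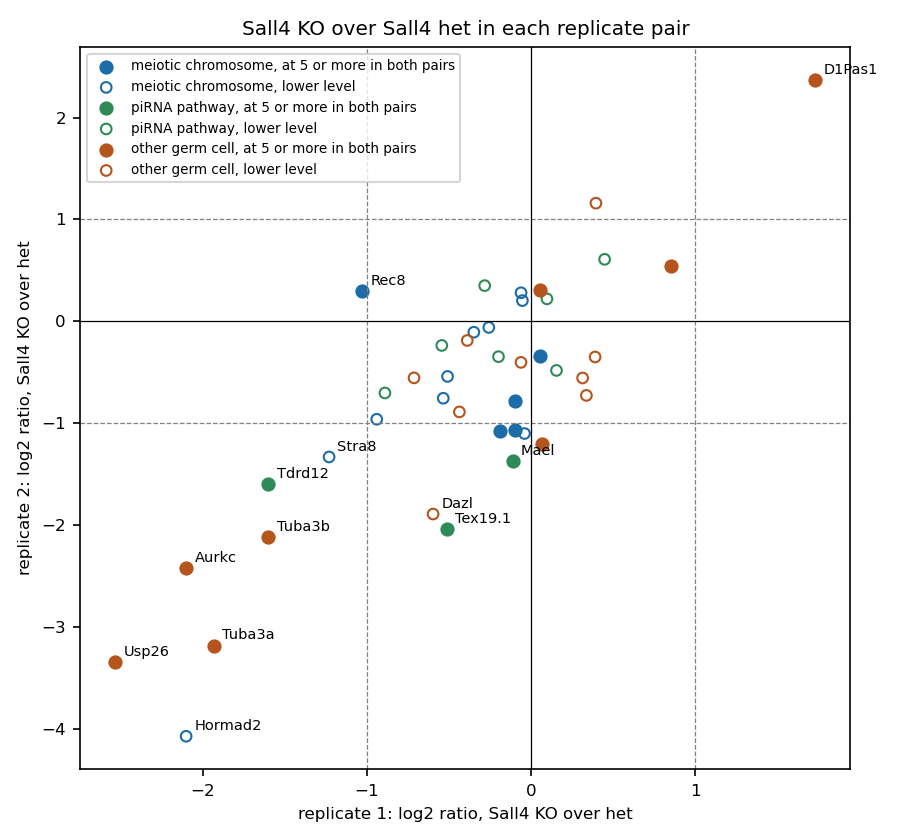
Log2 ratio of Sall4 KO over Sall4 het for each member listed in both pairs, replicate 1 (FPKM) across and replicate 2 (RPKM) up, each point 1 gene. Filled points are at 5 or more in both pairs, and dashed lines mark 2-fold. Of the filled points, Usp26, Tuba3a, Aurkc, Tuba3b and Tdrd12 lie past 2-fold lower in both pairs and D1Pas1 past 2-fold higher. Of the open points, which are at a lower level, Hormad2 and Stra8 lie past 2-fold lower in both pairs.

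Among the meiotic chromosome genes, Hormad2 (chromosome 11, 4245817 to 4341108), a HORMA-domain protein that monitors unpaired chromosome axes, was 5.26 and 22.1 in het and 0.356 and 0.333 in KO. Its log2 change was -3.12 ± 0.54 (SE, n = 2 per group, limma adjusted p of 0.386), the largest drop of any member by this fit, from het libraries that themselves differ widely. Stra8, the retinoic-acid-induced gene that opens meiosis, was 5.64 and 4.23 in het and 1.71 and 1.12 in KO, a log2 change of -1.30 ± 0.21 (limma adjusted p of 0.366). Both genes are missing from the count of 2-fold members because 1 pair does not reach 5 after scaling. The cohesin subunit gene Smc1b was 1.42 and 1.29 in het and 0.198 and 0.152 in KO, while its somatic counterpart Smc1a was 29.0 and 30.6 against 35.6 and 45.0.

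The more abundant of the other meiotic chromosome genes differed little, in 1 pair only or in opposite directions. Stag3 was 15.9 and 26.6 in het and 14.4 and 13.2 in KO. Syce1, of the central element, was 7.43 and 10.2 against 6.21 and 4.61, Hormad1 was 3.96 and 8.67 against 3.71 and 3.75, and Sycp3, of the lateral element, was 6.27 and 18.5 against 5.62 and 11.2. Each is close to level in replicate 1 and lower in replicate 2. Rec8, the meiotic kleisin of cohesin, pointed in opposite directions, at 9.48 and 6.32 in het and 3.94 and 8.69 in KO. Syce2 was 89.1 and 123 against 90.0 and 105. The recombinase gene Dmc1 was 2.88 and 3.48 in het and 1.6 and 1.76 in KO, and Tex11, an X-linked crossover factor, 1.5 and 1.28 against 0.698 and 0.593. Both were lower in each pair, at an unadjusted limma p under 0.05 and limma adjusted p of 0.569 and 0.585. Sycp1, Msh4 and Msh5 had log2 changes between -0.163 and 0.111.

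In the piRNA pathway, Tdrd12 was the 1 member of 8 tested with an unadjusted p under 0.05. The gene (chromosome 7, 36254117 to 36322764) encodes a Tudor-domain helicase that acts in secondary piRNA production and was 26.5 and 30.0 in het and 7.79 and 9.96 in KO, the log2 change being -1.6 ± 0.25 (SE, n = 2 per group, limma adjusted p of 0.366). The ratio was -1.6 in each pair. Tex19.1 was 47.2 and 153 in het and 31.8 and 39.5 in KO, lower in both pairs but unequally, the log2 ratio being -0.51 in replicate 1 and -2.04 in the other. Mael, a cofactor of piRNA silencing, was 7.82 and 12 against 6.95 and 4.33, and Mov10l1, the helicase that feeds piRNA precursors to the pathway, 6.96 and 2.96 against 3.15 and 1.52. Ddx4, the Vasa helicase, was 4.29 and 4.99 against 4.77 and 3.54. The PIWI gene Piwil2 was 2.86 and 1.80 in het and 1.56 and 1.48 in KO, and Tex15, which acts with the nuclear PIWI protein, was 1.41 and 1.34 against 2.26 and 2.83, higher in both pairs. The Tudor-domain gene Tdrd5 was 1.44 and 1.08 in het and 0.954 and 1.81 in KO, in opposite directions in the pairs. None of these passed the test.

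The pairs differ in size of ratio. In replicate 1, 7 of 19 members at 5 or more were 2-fold lower, against 4.04% of genes, and D1Pas1 was higher, against 4.24%. In replicate 2, 13 of 22 were lower, against 8.54%, and D1Pas1 and Prdm1 were higher, against 4.92%. Several of these members, such as Aurkc, Usp26 and D1Pas1, reached 5 only in the library where they are high, so these counts are a description. Other cell type markers moved alongside. The summed value of fibroblast markers was 344 in het and 623 in KO of replicate 1, where all 12 are listed, and 176 and 315 in replicate 2, where 10 are. Most of each sum was Vim, at 272 and 484 in replicate 1 and 121 and 265 in replicate 2. Thy1 was lower in KO in both pairs, at 7.54 and 1.23 and at 5.5 and 1.33, and the collagen gene Col1a1 lay between 0.471 and 3.28 in all 4. The median log2 ratio of the fibroblast markers at 5 or more was 0.956 over 6 genes in replicate 1 and 0.0118 over 4 genes in replicate 2. Primitive endoderm markers had a median log2 change of 1.04, with Col4a2 at 1.41, but Sparc, the highest of the list, was 219 and 101 in het and 148 and 71.4 in KO, and the list's summed value was 244 and 112 in het and 199 and 105 in KO. Two-cell-like markers were higher in KO of replicate 1, with a median log2 ratio of 1.32, and lower in KO of replicate 2, at -1.91. Their part in the member values was not tested, and in bulk RNA fewer cells of a type and less RNA per cell cannot be told apart.

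**Figure D3:**
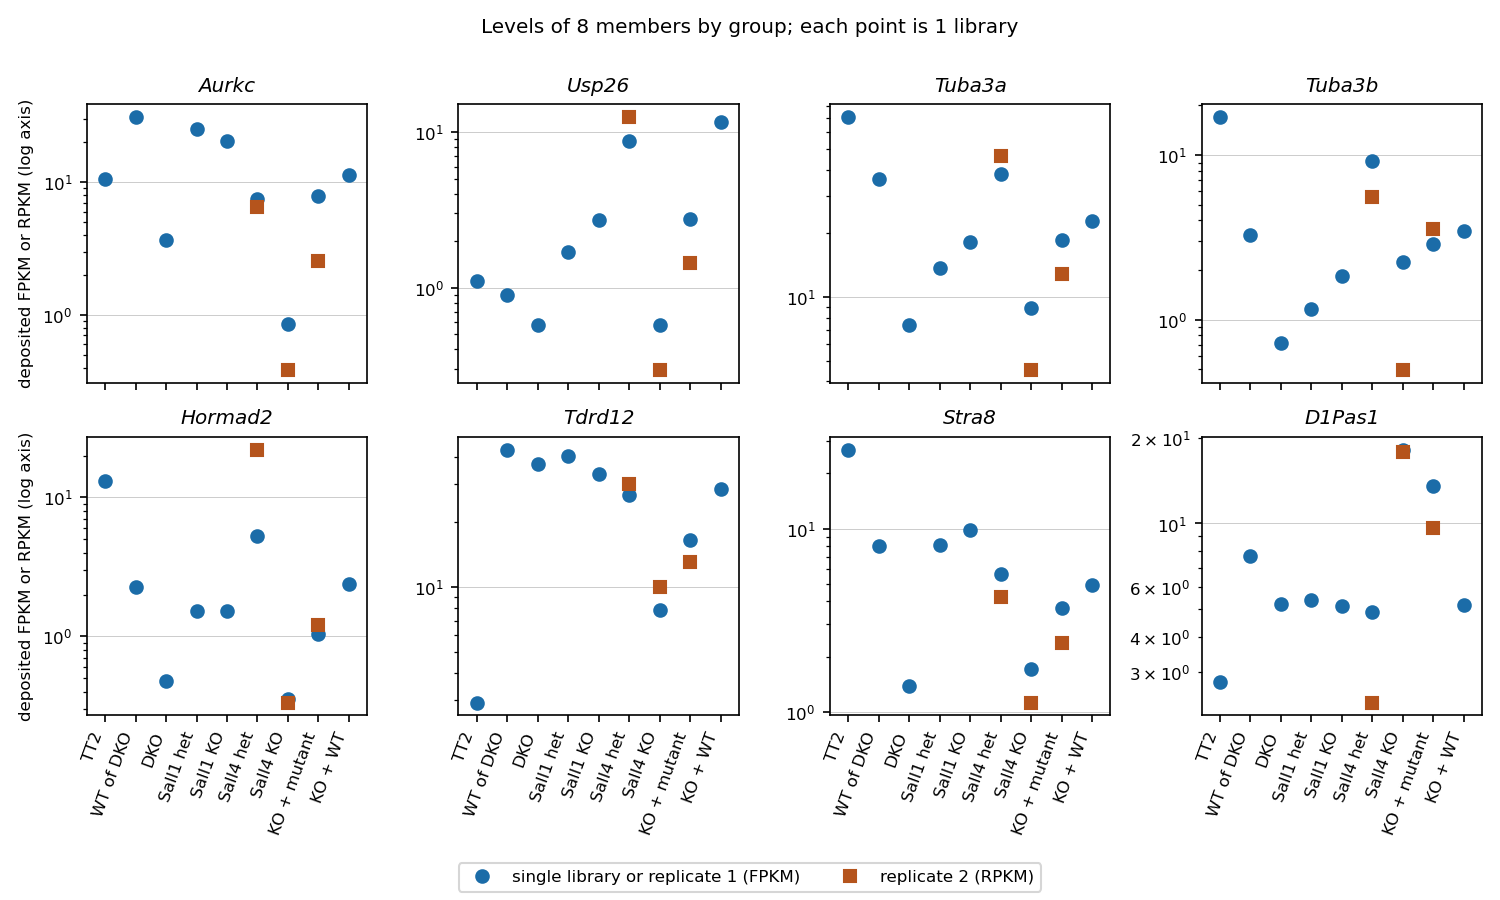
Deposited values of 8 members by group on log axes, 1 point per library, circles for single libraries and replicate 1 in FPKM, squares for replicate 2 in RPKM. The 8 have the largest fitted changes between KO and het of the members tested. For Aurkc, Usp26, Tuba3a, Tuba3b, Hormad2, Tdrd12 and Stra8 both Sall4 KO points lie under both Sall4 het points, and for D1Pas1 above them. The share of all genes with points apart in this way was not counted, so this is a description.

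Promoter windows show what the members share in sequence. RefSeq windows of 300 bases on GRCm38.p6, from 250 before to 50 after a start, were found for 42 of the 48 members, in 49 windows of which some overlap. The letters GCGGGA, the core of E2F sites, were searched on both strands (TCCCGC on the other), with the E-box CACGTG, which reads the same on both; the motifs can share at most 1 base. GCGGGA was in 42.9% of member windows and 20% of all 32851 windows, and CACGTG in 36.7% and 7.15%. By class, GCGGGA was in 11 of 16 meiotic chromosome windows, 6 of 18 of the other germ cell genes and 4 of 15 piRNA windows. Member windows held a median of 18 CpG dinucleotides against 7 in all windows, and among windows with 18 or more CpG the shares were 60% of 25 member windows and 47.7% of 9764 windows for GCGGGA, and 60% and 11.6% for CACGTG. With 8 to 17 CpG, GCGGGA was in 35.3% of 17 member windows and 21.2% of 6218 windows, and CACGTG in 17.6% and 8.96%. With 0 to 7 CpG, 0 of 7 member windows held either motif, against 3.49% of 16869 windows for GCGGGA and 3.91% for CACGTG. A match is a description of the letters and shows no binding.

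**Figure D4:**
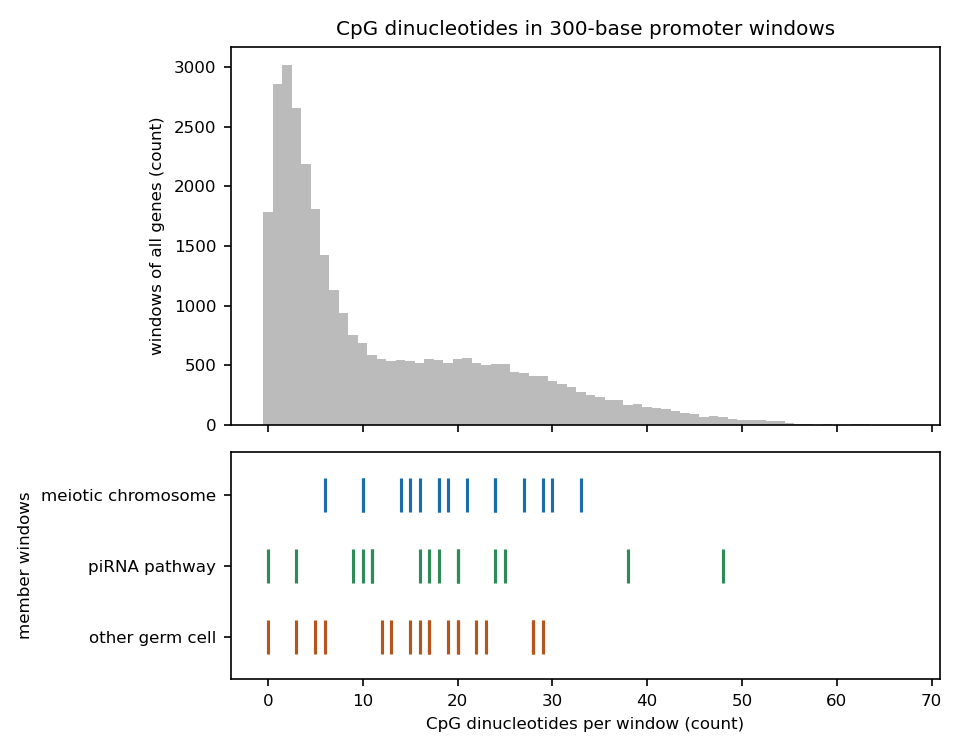
CpG dinucleotides per 300-base promoter window, as counts of all windows (upper bars) and with 1 tick per member window by class (lower rows). The member median is 18 and the median of all windows is 7.

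The windows of the genes that differ most between KO and het, and of Sycp3 as a contrast that differs less, are printed 5′ to 3′ with either motif in capitals. They lie in GRCm38.p6 at chr6:125286032-125286331, minus strand (Tuba3a), chr6:145615713-145616012, plus strand (Tuba3b), chr7:6995135-6995434, plus strand (Aurkc), chrX:51801184-51801483, minus strand (Usp26), chr11:4441033-4441332, minus strand (Hormad2), chr1:186967166-186967465, plus strand (D1Pas1) and chr10:88459337-88459636, plus strand (Sycp3).
Tuba3a: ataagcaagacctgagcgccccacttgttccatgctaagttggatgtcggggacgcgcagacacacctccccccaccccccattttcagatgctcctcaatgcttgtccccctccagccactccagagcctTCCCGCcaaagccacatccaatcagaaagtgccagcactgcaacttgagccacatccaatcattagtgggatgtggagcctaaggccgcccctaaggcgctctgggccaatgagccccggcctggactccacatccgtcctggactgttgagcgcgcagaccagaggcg
Tuba3b: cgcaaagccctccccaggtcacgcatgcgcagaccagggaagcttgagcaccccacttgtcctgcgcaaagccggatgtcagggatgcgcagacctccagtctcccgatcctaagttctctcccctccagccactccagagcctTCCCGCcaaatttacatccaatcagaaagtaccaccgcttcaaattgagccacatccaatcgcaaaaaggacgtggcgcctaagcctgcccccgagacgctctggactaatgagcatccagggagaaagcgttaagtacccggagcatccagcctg
Aurkc: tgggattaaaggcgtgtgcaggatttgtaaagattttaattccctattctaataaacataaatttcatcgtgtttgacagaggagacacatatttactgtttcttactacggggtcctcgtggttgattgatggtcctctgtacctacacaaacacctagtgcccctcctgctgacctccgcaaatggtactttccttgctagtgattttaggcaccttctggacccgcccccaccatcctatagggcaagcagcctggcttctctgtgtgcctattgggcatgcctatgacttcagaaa
Usp26: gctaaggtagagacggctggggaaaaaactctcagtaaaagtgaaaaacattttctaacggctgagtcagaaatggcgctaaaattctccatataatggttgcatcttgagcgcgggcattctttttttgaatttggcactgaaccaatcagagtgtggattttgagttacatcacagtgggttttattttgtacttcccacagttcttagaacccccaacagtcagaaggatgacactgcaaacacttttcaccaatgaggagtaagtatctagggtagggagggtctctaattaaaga
Hormad2: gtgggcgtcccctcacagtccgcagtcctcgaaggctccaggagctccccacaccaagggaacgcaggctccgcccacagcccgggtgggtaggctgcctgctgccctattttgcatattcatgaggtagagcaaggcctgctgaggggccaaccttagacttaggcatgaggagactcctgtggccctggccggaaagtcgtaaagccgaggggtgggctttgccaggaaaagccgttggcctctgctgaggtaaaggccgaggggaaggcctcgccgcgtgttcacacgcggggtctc
D1Pas1: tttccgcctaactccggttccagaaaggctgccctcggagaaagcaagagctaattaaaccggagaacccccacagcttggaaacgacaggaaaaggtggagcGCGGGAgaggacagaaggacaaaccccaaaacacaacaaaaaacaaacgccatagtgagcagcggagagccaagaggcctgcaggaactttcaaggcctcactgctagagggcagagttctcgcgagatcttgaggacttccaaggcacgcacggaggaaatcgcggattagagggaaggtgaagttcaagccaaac
Sycp3: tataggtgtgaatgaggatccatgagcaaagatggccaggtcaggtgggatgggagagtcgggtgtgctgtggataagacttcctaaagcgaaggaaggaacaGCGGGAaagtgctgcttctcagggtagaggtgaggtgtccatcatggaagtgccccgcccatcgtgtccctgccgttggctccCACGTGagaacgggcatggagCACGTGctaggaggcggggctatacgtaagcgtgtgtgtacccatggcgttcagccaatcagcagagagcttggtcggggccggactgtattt
Tuba3a and Tuba3b share a run of 33 bases that holds 1 GCGGGA match on the other strand, at -119 and -106 from the start. Aurkc, Usp26 and Hormad2 have neither motif in this window, and Aurkc and Usp26 have 6 and 5 CpG dinucleotides. D1Pas1, which was higher, has GCGGGA at -147, as does Sycp3, which also has CACGTG in 2 places. Among the windows printed, those with GCGGGA thus belong to genes lower in KO, to a gene higher in KO and to Sycp3.

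Returning SALL4A to KO cells asks whether member levels differ from those without it. With KO plus WT there was 1 library and no test, and both add-back comparisons use the same KO libraries as the KO against het comparison, so their values are set side by side and not counted as separate evidence. Aurkc was 0.852 in KO replicate 1, 11.4 with wild-type SALL4A and 7.90 with the mutant, and 2.55 in mutant replicate 2. Usp26 was 0.572 in KO replicate 1, 11.6 with wild type and 2.77 with the mutant, and 1.43 in mutant replicate 2. For Aurkc both add-back libraries of replicate 1 were above het replicate 1 at 7.43, and for Usp26 only the wild type was above het, at 8.74. Here and in the next paragraph, add-back values are unscaled and come from tables of other entries than het and KO. Their place relative to het or KO is therefore uncertain.

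Tdrd12 was 7.79 in KO replicate 1, 28.4 with wild type and 16.4 with the mutant, and 13.1 in mutant replicate 2. Tuba3a was 8.93, 22.8 and 18.7 in the same order, with 12.9 in mutant replicate 2, all under the het values of 38.1 and 46.6. Stra8 was 1.71, 4.91 and 3.67, with 2.37 in mutant replicate 2. D1Pas1, the gene higher in KO, was 18.2 in KO replicate 1, 5.17 with wild type and 13.6 with the mutant, and 9.63 in mutant replicate 2, so only wild type came near the het value of 4.87. Hormad2 was 0.356 and 0.333 in the KO libraries, 2.38 with wild type and 1.04 and 1.2 with the mutant, above KO in each but under the het values of 5.26 and 22.1.

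Counted at 2-fold among members at 5 or more, KO plus WT was higher than KO replicate 1 for 6 of 19 (Aurkc, Stra8, Tdrd12, Tex19.1, Tuba3a and Usp26), against 8.75% of genes, and lower for D1Pas1, against 14% of genes. KO plus mutant was higher for 4 of 19 in replicate 1 (Aurkc, Sycp3, Tdrd12 and Tuba3a), against 7.88%, and for 4 of 17 in replicate 2 (Mael, Rpl39l, Stag3 and Tuba3a), against 15.8%. It was lower for Stk31 in replicate 1, against 13%, and for no member in replicate 2, against 1.6%. For KO plus WT, Aurkc, Stra8 and Usp26 reached 5 only in the add-back library. For KO plus mutant, so did Aurkc in replicate 1 and Mael and Tuba3a in replicate 2. Stk31 in replicate 1 reached 5 in KO but not in KO plus mutant, so these counts are a description. The replicate 1 ratios cross tables of 37883 and 23234 entries, and the 2 entries of Stk31 stand in the larger ones only. The replicate 2 ratios cross tables of 19049 and 20223 entries. Fibroblast markers had median log2 ratios to KO replicate 1 of -1.73 in KO plus WT and -2.33 in KO plus mutant, and their part was not tested.

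Where the genes lower in KO replicate 2 were followed into KO plus WT, whose ratio uses KO replicate 1, 5 of 9 members were 2-fold higher, against 39.3% of 405 genes, and 3 of 10 in KO plus mutant, against 33.3% of 390. Aurkc, counted in both, and Usp26, counted with wild type, reached 5 only in the add-back library, so these counts are a description. Directly between the add-back libraries of replicate 1, Usp26 and Stk31 were 2-fold higher with wild type than with the mutant, against 2.09% of genes, and D1Pas1 and Rpl10l lower, against 1.31%. The log2 ratios were 1.73 for Usp26, 1.03 for Stk31, -1.30 for D1Pas1 and -1.16 for Rpl10l, with no replicate. Of these, Usp26 and Stk31 reached 5 only with wild type.

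In limma, KO plus mutant against KO called 0 of 38 members and 0 of 11637 genes (0%), with 1136 genes at an unadjusted p under 0.05. At that level 12 members were higher, against 5.15% of genes, and 0 lower, against 4.61%. The median log2 change of members was 0.48 against -0.0202 over all genes, and 51.8% of genes were fitted below 0. By class, 0 of 14 meiotic chromosome genes, 2 of 8 piRNA genes and 6 of 16 other germ cell genes were fitted below 0. KO plus mutant and KO come from tables of different entries within each replicate number, and the replicate term does not remove this. The log2 change of Aurkc was 2.00 ± 0.35 (SE, n = 2 per group, limma adjusted p of 0.365) and that of Smc1b was 1.27 ± 0.19 (adjusted p of 0.357). Without KO plus mutant replicate 2, which leaves 1 mutant library, the log2 change of Aurkc was 2.58. It ranged from 0.918 to 3.04 over 17 settings, the main fit among them.

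Against het, KO plus mutant called 0 of 38 members and 0 of 11637 genes (0%) in limma, with 1227 at an unadjusted p under 0.05. Members were fitted below 0 in 20 of 38 cases, against 51% of genes. Hormad2, Tdrd12, Tuba3a and Usp26 were lower at that level, against 5.67% of genes, and D1Pas1, Prdm1 and Rpl10l higher, against 4.87%. Usp26 stood at a log2 change of -1.72 ± 0.34 and D1Pas1 at 1.73 ± 0.25 (SE, n = 2 per group, limma adjusted p of 0.46 for both). Without KO plus mutant replicate 2, which leaves 1 mutant library, the log2 change was 1.76 for D1Pas1 and 1.41 for Rpl10l. Over 17 settings, the main fit among them, D1Pas1 ranged from 1.13 to 2 and Rpl10l from 0.929 to 1.41. KO plus mutant and het also come from tables of different entries within each replicate number.

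The DKO against its wild type asks the same with SALL1 also lost, in 1 library each. The DKO library held Sall4 RNA at 109 and Sall1 RNA at 2.27, against 17.6 and 13.9 for its wild type, so Sall4 RNA again goes against the label. Of 19 members at 5 or more, 7 were 2-fold lower in DKO (Aurkc, Dazl, Hormad1, Rpl10l, Rpl39l, Stra8 and Tuba3a), against 3.52% of genes, and 1 higher (Rec8), against 4.97%. Rpl39l was 9.06 in DKO and 118 in wild type, a log2 ratio of -3.52, and Rpl10l was 32.8 and 163, at -2.23. The somatic copies were close to level, with Rpl39 at 4070 and 3800 and Rpl10 at 2470 and 2250. Aurkc was 3.64 against 31.2, Stra8 1.38 against 8.08, Tuba3a 7.38 against 36.1, Hormad1 2.01 against 9.45 and Dazl 1.83 against 7.62. Aurkc, Stra8, Hormad1 and Dazl reached 5 only in wild type, where they are high, so the count of 7 is a description. Aurkc and Tuba3a are the members 2-fold lower here as well as in both Sall4 pairs, 2 of the 3 that could be read in all, where 38.7% of 62 such genes were lower.

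Other members took another course in the DKO. Tdrd12 was 37.1 against 43.1 and Tex19.1 74.2 against 61.3, and Rec8 was 15.3 against 5.95. Usp26 was under 1 in both libraries, at 0.577 and 0.896, and D1Pas1 was 5.19 against 7.69. No piRNA gene of the 4 at 5 or more passed 2-fold. Fibroblast markers were high in both libraries, Col1a1 at 103 and 97.9, although the growth protocol in the labels describes culture without feeder cells, and two-cell-like markers had a median log2 ratio of -1. Their part in the member ratios was not tested.

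Loss of SALL1 alone (Sall1 KO against Sall1 het) was read in 1 library each, and 0 of 16 members were past 2-fold in either direction, where 0.704% of genes were lower and 0.619% higher. The log2 ratios lay between -0.508 for Sycp3, at 20.3 in KO and 29.3 in het, and 0.394 for Tuba3a, at 18.3 and 13.7. Aurkc was 20.6 and 25.2, Tdrd12 33.1 and 40.2, Stra8 9.83 and 8.10 and D1Pas1 5.13 and 5.40. Sall1 RNA itself stood at 13.3 in the KO library and 21.8 in the het library. Of the 3 members 2-fold lower in both Sall4 pairs and read here, 0 were 2-fold lower, against 1.75% of 57 such genes. With 1 library a group, the difference between this pair and the Sall4 pairs was not tested.

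**Figure D5:**
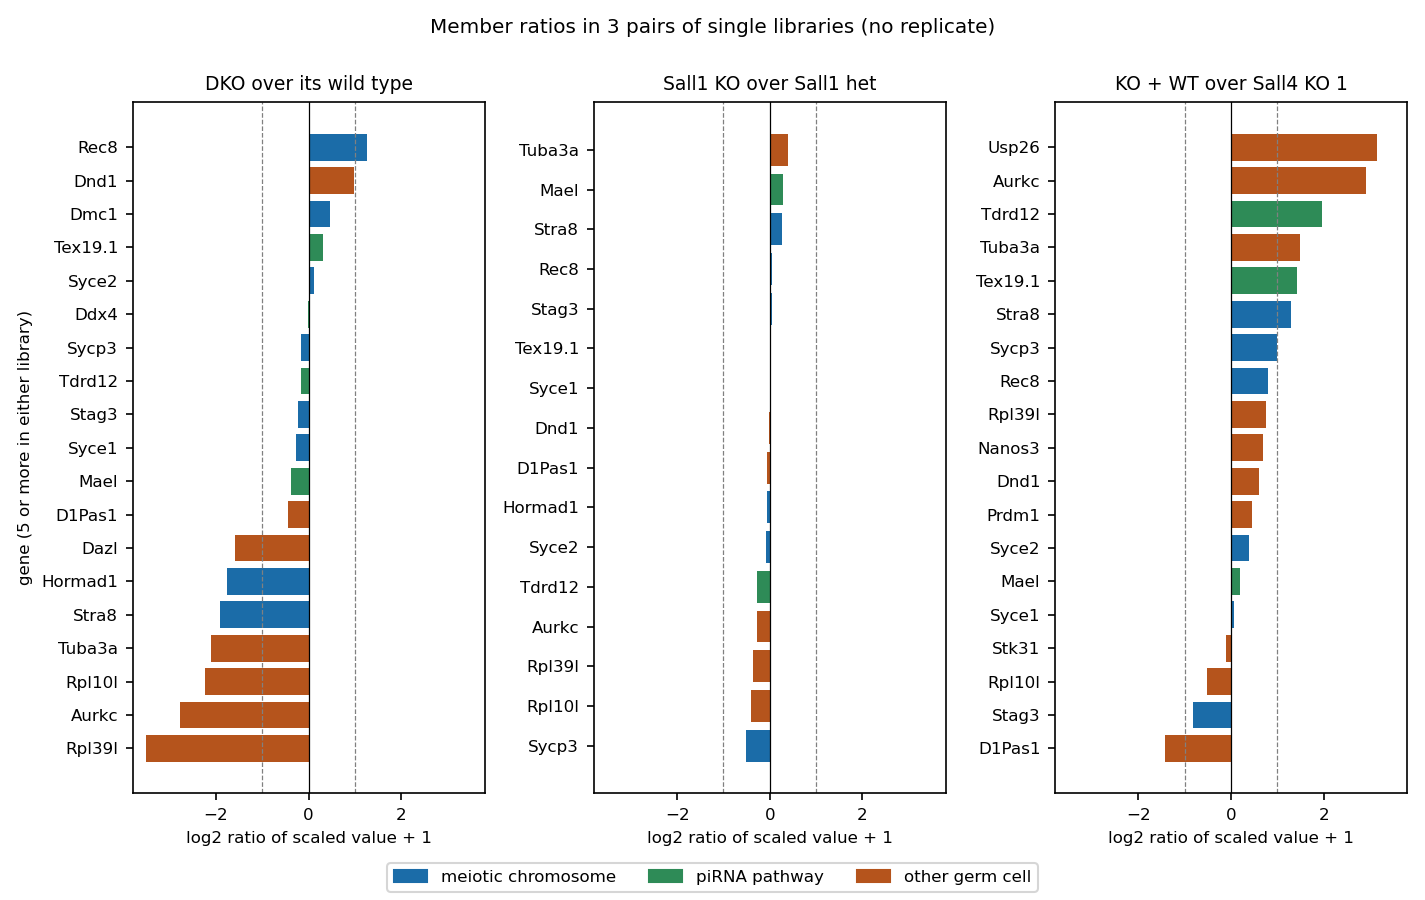
Log2 ratios of members at 5 or more in 3 pairs of single libraries, bars coloured by class, dashed lines at 2-fold. In the DKO pair 7 bars pass 2-fold lower, in the Sall1 pair none passes it, and in KO plus WT over KO replicate 1, 6 pass 2-fold higher.

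TT2 cells and the Sall lines also differ in level, across annotations that forbid a ratio. In TT2, Tdrd12 was 2.92 against 7.79 or more elsewhere and Mael was 0.626 against 4.33 or more. Stra8 was highest in TT2 at 27, as were Tuba3a at 71.2, Tuba3b at 17.1, Dazl at 10.9, Dmc1 at 9.41 and Rpl39l at 164. Among the other untreated controls, Aurkc was 31.2 in the wild type of the DKO and 25.2 in Sall1 het against 7.43 and 6.56 in Sall4 het, while Usp26 was 0.896 and 1.70 against 8.74 and 12.6. Strain labels, line and table differ between these libraries and cannot be told apart.

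Further genes of the same pathways, from lists of their own, gave 0 calls in limma between KO and het. At an unadjusted p under 0.05, 2 of 12 further meiosis genes were lower and 0 higher, and 4 of 12 further piRNA genes were lower and 0 higher. Of all genes, 4.53% were lower and 3.73% higher. Syce3, of the central element, was 8.53 and 10.0 in het and 2.26 and 1.57 in KO, the log2 change being -1.83 ± 0.26 (SE, n = 2 per group, limma adjusted p of 0.366). Gpat2, a mitochondrial partner of the piRNA pathway, was 4.65 and 5.6 against 0.524 and 0.325, and Fkbp6, a piRNA co-chaperone, 7.58 and 8.42 against 1.44 and 1.04. Of 10 germ cell specification genes tested, Dppa3 and Zp3 were lower at that level, against 4.53% of all genes. Dppa3 was 47.7 and 183 in het and 2.11 and 3.58 in KO. The meiotic histone methyltransferase gene Prdm9 was 20.3 and 50.9 against 11.4 and 11.2, but under 1 in the 6 gene-level FPKM libraries with another annotation, so its level depends on the table.

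Genes known to silence germline promoters were read as a list. Of 21 genes of the E2F6 Polycomb complex and DNA methyltransferase list, 0 passed the limma test between KO and het. At an unadjusted p under 0.05, 0 were lower and 0 higher, against 4.53% and 3.73% of all genes. Their median log2 change was 0.147, against -0.016 over all genes. The de novo methyltransferase gene Dnmt3b had a fitted change, on the log2 scale, of -0.549 ± 0.24 (SE, n = 2 per group, limma adjusted p of 0.65). In the DKO pair Dnmt3b had a log2 ratio of 1.85, the 1 gene of this list past 2-fold there. Of 16 somatic counterparts of the members, such as Smc1a, Aurka and Tuba1a, 0 were lower at an unadjusted p under 0.05, against 4.53% of all genes. At that level 1 was higher (the cohesin gene Stag2, log2 change 0.996), against 3.73%. The counterparts' median log2 change was 0.0189, against -0.016 over all genes.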

How the data were processed

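RNA was measured in 12 of the series' 80 samples, and the other 68 were not analysed here. Per the submitters' processing notes, the series used TopHat, Bowtie 0.12.7, SAMtools and MACS 1.4.2 on mm9, while the sources used here do not say which tool made which table. The authors deposited FPKM values for 9 libraries and RPKM values for 3 libraries, with no read totals, so depth is unknown and precision is judged only from replicates. Entries of 1 symbol were summed, and TT2, deposited per transcript, entered no ratio. The 11 gene-level libraries (for the fit, its 6) were brought to 1 scale by median ratios, and log2(value + 1) was taken, which understates changes of low genes. Limma 3.58.1, run under R 4.3.3 with a trended eBayes step, fitted Sall4 het, KO and KO plus mutant together with a term for replicate number. Genes entered if at least 2 of the 6 libraries held a value of 1 and they were listed in every library of both groups compared. Tests were two-sided with Benjamini-Hochberg adjustment over all genes at 0.05. Single pairs got no test: ratios were read for genes at scaled 5 or more in either library, with 2-fold as limit. Same-numbered libraries deviated together with a correlation over 11637 genes of 0.578 for het and KO, 0.105 for het and KO plus mutant and 0.0644 for KO and KO plus mutant. The term stayed because unit, annotation and strain label change with the number. Tables also differ within a number, as het and KO had 37883 entries in replicate 1 and 19049 in replicate 2. KO plus mutant had 23234 and 20223, a difference the term does not absorb. The scripts were tested on simulated data.

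All 48 members are accounted for. Those at 5 or more in some library are described, the others by counts and range, and at most 2 genes of each further list were to be named by size of change between KO and het. Further genes (Smc1a, Aurka, Aurkb, Tuba1a, Ddx3x, Rpl10, Rpl39, Col1a1, Vim, Sparc) were named as counterparts or markers after their values were seen. The members and lists were chosen with earlier results of these data known. Gene coordinates are mm9 from the deposited tables, and promoter sequences are from RefSeq on GRCm38.p6. CpG groups of windows were chosen after seeing the data. Other steps used pandas 2.3.3 and numpy 2.4.6 under Python 3.11.15, and figures matplotlib 3.10.9.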

Additional observations from a re-analysis of the deposited data

How the results depend on the processing

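With 2 libraries in each replicated group and 1 in the rest, and with unit, annotation and strain label changing together between replicates, no member passed the test in any of 3 comparisons on all 6 libraries. Over the alternatives (other pseudocounts, filters and scaling, no trend, fewer libraries), members called stayed at 0 for Sall4 KO against het. Without the replicate block, 0 members were called in each comparison. In the KO plus mutant comparisons, members passed only without KO plus mutant replicate 2. That fit rests on 1 mutant library, so only its effect sizes are given. The DKO pair had 2 members 2-fold higher at a pseudocount of 0.1 and 0 at a pseudocount of 5. KO plus WT had 2 members 2-fold lower than KO replicate 1 with values as deposited. For KO plus mutant against KO, Prdm1 turned to -0.058 with values as deposited and ranged from -0.129 (without Sall4 KO replicate 1) to 0.535 as 1 library was left out, and Tex19.1 from -0.13 (without KO plus mutant replicate 1) to 0.998. The members' median for KO plus mutant against het, -0.0362, turned to 0.0684 with upper-quartile scaling and ranged from -0.192 to 0.0384 as 1 library was left out, above 0 without Sall4 het replicate 2 (0.00535) or KO plus mutant replicate 2. The cause was not tested.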

Other observations

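Germ cell specification genes, a further list, were all above KO replicate 1 in the KO plus WT library: 9 of 9 at 5 or more, against 4126 of 8388 genes. Their median log2 ratio was 0.861 against -0.0173 over all genes, in 1 library each, across tables of different annotation and with no test. With the mutant, 9 of 9 were above KO in replicate 1, against 4141 of 8416 genes, with a median of 0.653 against -0.0166 over all genes. In replicate 2, 6 of 9 were above KO, against 6350 of 10987 genes, with a median of 0.11 against 0.0879 over all genes. Dppa3, a maternal and germ cell factor, was 2.11 in KO replicate 1, 101 with wild-type SALL4A and 26.4 with the mutant, and 3.58 and 12.7 in replicate 2 of KO and KO plus mutant. In the DKO pair it took the other direction from the Sall4 pairs, at 110 in DKO and 58.4 in wild type. Kit, the receptor of migrating germ cells, was 13.8 in DKO and 43.6 in its wild type, and 16.4 and 22.6 against 21.6 and 20.9 in the Sall4 KO and het libraries. Kit was chosen after its values were seen.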
